A study of Danio rerio with 7 samples.

Results

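Neural crest (NC) cells of 18 and 20 hours post-fertilization (hpf) were compared in droplet single-cell RNA-seq of the first pharyngeal arch (PA1) region of zebrafish embryos. Cells were selected on their own counts, which are also the values reported: a cell was chosen by its UMIs (unique molecular identifiers, each 1 captured transcript), as NC when it had at least 1 of at least 4 of 11 crest genes (foxd3, tfap2a, twist1a, twist1b, dlx2a, sox9b, snai1b, pax3a, inka1a, grem2b and ednrab) and no UMI of epcam, cdh5, spi1b, myl7 or elavl3, which mark epithelial, endothelial, myeloid, cardiac and neuronal cells. This rule kept 111 of the 248 cells at 18 hpf and 325 of the 516 cells at 20 hpf, together 436 of the 2854 cells of the series. All embryos carried the transgene Tg(sox10:nEOS)w18 in the AB strain, in which sox10 regulatory sequence drives a photoconvertible nuclear protein. Cells in the PA1 migratory stream were converted by laser in live embryos, and the dissociated embryos were sorted for the converted colour. The labels name no treatment, and each timeline library pooled several embryos, so single embryos cannot be told apart. The sort used the reporter alone, and it also brought in cells that carry an excluding gene (121 of 248 at 18 hpf and 145 of 516 at 20 hpf).

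Each stage had 1 library, so stage and library cannot be told apart and no test between stages was made. A further library of 18 hpf, called the second 18 hpf library, held 386 NC cells among 979 cells. It was made with a later chemistry and is in its own table, and its values are given beside the others. The NC cells held 1587722 UMIs at 18 hpf, 6555688 at 20 hpf and 11150479 in the second 18 hpf library, with a median of 14406, 20288 and 28497 UMIs per cell. No cell barcode was shared among these 3 libraries. Levels are counts per 1000000 UMIs of the summed NC profile (CPM) with exact 95% Poisson intervals, and ratios carry exact 95% intervals. Where 3 values follow each other without a library name, they stand in the order 18 hpf, second 18 hpf library, 20 hpf. All intervals cover counting error only, not the spread between embryos or libraries.

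The cranial NC forms at the border of the neural plate, leaves the neural tube and migrates into the pharyngeal arches, where it gives rise to cartilage and bone, pigment cells, glia and neurons. Genes such as pax3a, zic2b, foxd3 and sox10 act early in this sequence. Arch cells that will make skeleton, the ectomesenchyme, turn on dlx2a and its relatives, twist1a and matrix genes, while pigment progenitors use mitfa and enzymes of pigment synthesis.

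The marker genes twist1a, dlx2a and grem2b encode a Twist factor, a Dlx homeobox factor and a Bmp antagonist. All belong to the selecting rule, so their values describe the selection and do not check the labelled cell type. After each cell was thinned to 6000 UMIs, dlx2a was found in 66.7% (57.1 to 75.3) of NC cells at 18 hpf and 82.7% (78.2 to 86.7) at 20 hpf. In cells of the same libraries with a UMI of an excluding gene and at most 1 crest gene, called background cells, its share was 1.19% (0.0301 to 6.46) and 1.89% (0.229 to 6.65). The share of NC cells with twist1a was 68.5% (59 to 77) at 18 hpf and 83% (78.5 to 86.9) at 20 hpf, against 3.57% and 1.89% in background cells. Background cells had medians of 10919.5 and 15704 UMIs before thinning, against 14406 and 20288 in NC cells, and without thinning dlx2a was in 78.4% and 89.2% of NC cells and twist1a in 72.1% and 85.2%. Background cells were also defined by their lack of crest genes, so the gap to NC cells follows from both selections. The gene grem2b stood apart from the other markers: thinned NC cells carried it in 17.1% (10.6 to 25.4) of cases at 18 hpf, 67% (61.6 to 72.1) at 20 hpf and 55.2% (50.1 to 60.2) in the second 18 hpf library. Unthinned, these were 29.7%, 76.9% and 69.9%. Near the threshold, 10 NC cells at 18 hpf and 24 at 20 hpf had exactly 4 crest genes, while 5 and 17 cells without an excluding gene had 3. The median NC cell had 7 of the 11 crest genes in each of the 3 libraries.

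Across the profile, 3472 genes had a mean of at least 20 CPM over the 18 and 20 hpf libraries. Of these, 309 (8.9%) were at least 2-fold higher at 20 hpf and 145 (4.18%) at least 2-fold lower, with 0.5 added to each count. Against the second 18 hpf library, 150 (4.32%) were at least 2-fold higher at 20 hpf and 285 (8.21%) lower. Among these 3472 genes, the libraries of 18 hpf differed from each other at more genes than either did from 20 hpf. That order depends on the minimum, which left out the second 18 hpf library. With the minimum set on the second 18 hpf and 20 hpf libraries, 142 genes were higher at 20 hpf and 428 lower. In the second, 441 genes (12.7%) were at least 2-fold higher and 106 (3.05%) lower than in the first. In either direction these were 547 genes (15.8%), beside 454 (13.1%) for 20 hpf against the first library and 435 (12.5%) against the second. Genes past 2-fold against both 18 hpf libraries were counted as a group of their own. Both comparisons share the single 20 hpf library and are not independent, so this group can still hold differences that belong to that library. There were 63 such genes above both (1.81%) and 80 below both (2.3%). The median log2 ratio of 20 over 18 hpf was 0.16 and that against the second 18 hpf library was -0.08. Ribosomal protein genes took 40.4% of the UMIs of NC cells at 18 hpf, 36.5% at 20 hpf and 33.5% in the second 18 hpf library, and mitochondrial transcripts 0.95%, 1.29% and 1.66%. After the ratios were centred on their median, 221 genes were at least 2-fold higher and 193 lower. Because the minimum used the mean of both libraries, a gene near 0 in one of them could pass only by being high in the other. The gene lists reported below met the same minimum, so their counts are a description.

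**Figure D1:**
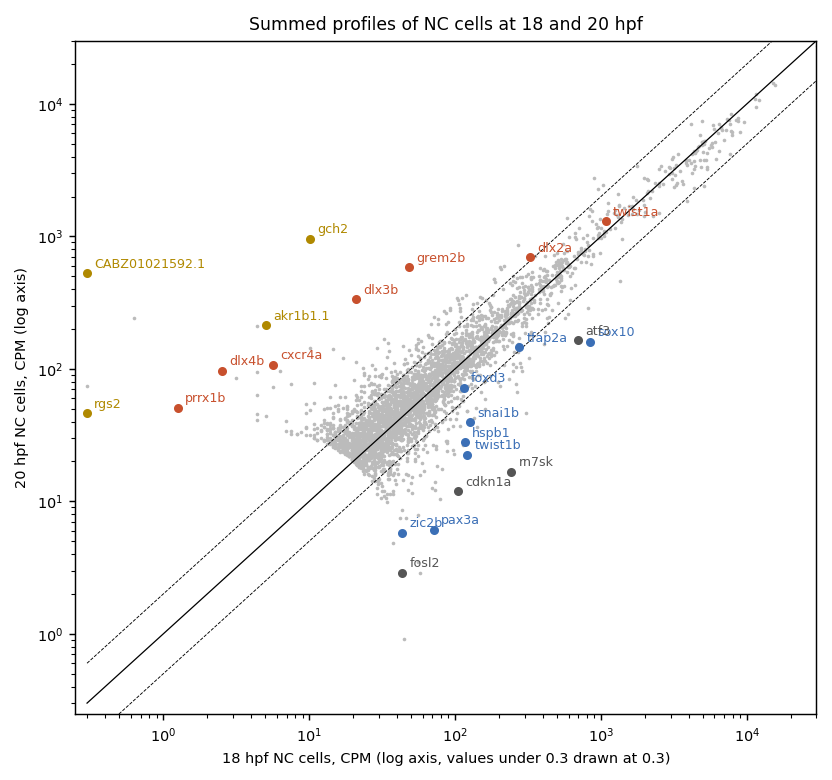
Each point is 1 of the 3472 genes, with its CPM in the 111 NC cells of 18 hpf (x axis) and the 325 NC cells of 20 hpf (y axis), both on log axes, with the diagonal (solid) and 2-fold lines (dashed). Early crest genes (blue) lie below the diagonal, arch genes (red) above it or near it, pigment-related genes (ochre) far above it, and 4 stress and other genes (grey) below it.

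Most genes listed as early crest specifiers and over the CPM minimum were at least 2-fold lower at 20 hpf than in the first 18 hpf library. Of the 32 genes listed as early crest specifiers, 16 passed the minimum, of which 11 were at least 2-fold lower (background 4.18%) and 1 was higher, with a median log2 ratio of -1.61 against 0.16 over all genes. Against the second 18 hpf library, 7 of these 16 were at least 2-fold lower and 2 higher, with a median of -0.77. All genes had 8.21% lower and 4.32% higher there. Those below both 18 hpf libraries were sox10, pax3a, zic2b, msx1b, msx2b, zfhx4 and hspb1, 7 of 16 beside 2.3% of all genes. The list shares foxd3, sox9b, pax3a, tfap2a, snai1b, twist1b and inka1a with the selecting rule, and for those the values are a description. Of these, pax3a, twist1b and snai1b were among the genes counted as lower than in the first library. The small heat-shock gene hspb1 is also on the heat-shock list. All lists were chosen with earlier results of these data known, so the counts are a description too.

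The SoxE factor sox10, which the rule does not use, had 840.2 CPM (796 to 887) at 18 hpf, 922 CPM (904 to 939.8) in the second 18 hpf library and 160.2 CPM (151 to 170.2) at 20 hpf. Its level was thus 5.25-fold lower (4.83 to 5.69) at 20 hpf than in the first 18 hpf library and 5.75-fold lower (5.4 to 6.14) than in the second. Both 18 hpf libraries lay close to each other, and the levels of 24 and 30 hpf (150.1 and 121 CPM) lay close to that of 20 hpf. In the 30 hpf library, 23 of the 67 NC cells were called doublets (droplets with more than a single cell) and were kept. The share of NC cells with sox10 after thinning was 92.8% (86.3 to 96.8) and 92% (88.8 to 94.5) in the 18 hpf libraries and 36.7% (31.5 to 42.2) at 20 hpf, and without thinning 95.5%, 99.7% and 58.5%. Background cells, sorted through the same sox10 reporter, carried it in 33.3% (23.4 to 44.5), 63.6% (59 to 68) and 23.6% (15.9 to 32.8), and at 20 hpf the intervals of NC and background cells overlapped.

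The paired-box gene pax3a, a regulator at the neural plate border and one of the rule genes, had 71.2 CPM (58.7 to 85.6) at 18 hpf, 76.9 CPM (71.9 to 82.3) in the second library and 6.1 CPM (4.36 to 8.31) at 20 hpf. That was 11.7-fold lower (8.07 to 17.2) at 20 hpf than in the first 18 hpf library. The zinc-finger gene zic2b, also a plate border regulator, had 43.5 CPM (33.8 to 55), 45.1 CPM (41.3 to 49.2) and 5.8 CPM (4.1 to 7.96) in the same order, 7.5-fold lower (4.98 to 11.5) at 20 hpf. Both genes had nearly equal levels in the 18 hpf libraries and stood at or under 1 CPM from 24 hpf on. The small heat-shock protein gene hspb1 was 4.15-fold lower (3.37 to 5.12) at 20 hpf, with 117, 166 and 28.1 CPM in the same order, down from 1881 CPM at 12 hpf. Of the homeobox genes msx1b and msx2b, known as Bmp targets, msx1b was 2.26-fold lower (1.92 to 2.65) and msx2b 3.61-fold lower (2.7 to 4.83).

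Other members depended on which 18 hpf library was used, or were under 2-fold apart from both. The Snail factor snai1b, which acts in the loosening of epithelial cells, was 3.19-fold lower (2.64 to 3.85) at 20 hpf, with 127 CPM (109.7 to 145) at 18 hpf and 39.7 CPM (35 to 44.8) at 20 hpf, but the second 18 hpf library had 63.4 CPM (58.8 to 68.3), less than 2-fold above 20 hpf. The rule gene foxd3, a forkhead factor of premigratory crest and later of neural and glial cells, had 115 CPM (98.6 to 133), 130.1 CPM (124 to 137) and 71.8 CPM (65.5 to 78.6), and tfap2a, an AP-2 factor, had 276 CPM (251 to 304), 218 CPM (209 to 227) and 146 CPM (137 to 156). These were lower at 20 hpf than in either 18 hpf library by less than 2-fold. The Msx gene msx3 went in opposite directions, with 9.92 CPM at 20 hpf against 34 CPM in the first and 4.22 CPM in the second 18 hpf library. The exception among early regulators was snai1a, a paralogue of snai1b. It had 3.15 CPM (1.02 to 7.35) at 18 hpf, 14.5 CPM (12.4 to 16.9) in the second library and 84.8 CPM (77.9 to 92.2) at 20 hpf, and was 26.9-fold higher (11.5 to 83.3) at 20 hpf than in the first. Its thinned share at 20 hpf was 29.9% (25 to 35.2) of NC cells, against 4.72% (1.55 to 10.7) of background cells, with 52.3% of NC cells unthinned. In the 18 hpf libraries its NC shares of 0.901% (0.0228 to 4.92) and 6.99% (4.66 to 10.0) were at the background there, 4.76% (1.31 to 11.7) and 6.03% (4.05 to 8.6).

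**Figure D2:**
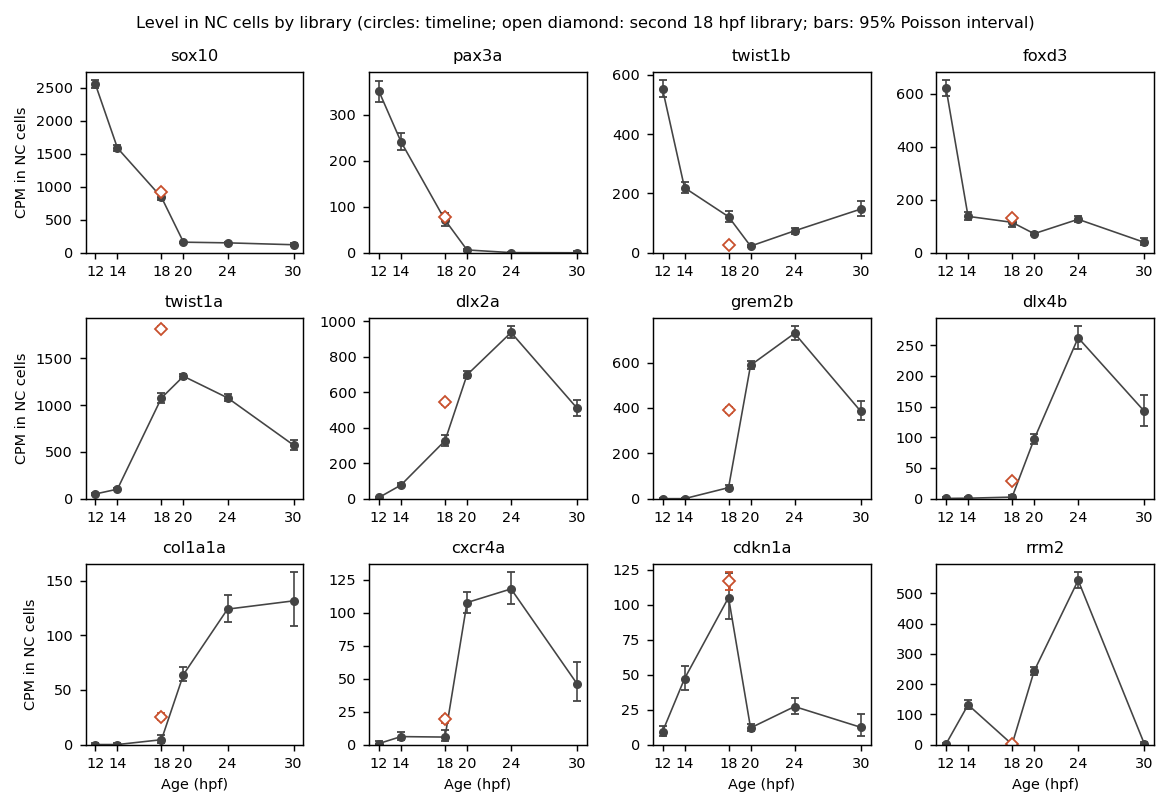
Level of 12 genes in NC cells (CPM, linear axes from 0) by age of the library in hpf. Circles are the 6 timeline libraries, the open diamond is the second 18 hpf library, and bars are 95% Poisson intervals. The drop of sox10 and pax3a between 18 and 20 hpf starts from nearly equal values in both 18 hpf libraries, whereas twist1b and grem2b differ between those libraries by a large part of the step.

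The Twist paralogues behaved differently from each other. The gene twist1a had 1076 CPM (1025 to 1128) at 18 hpf, 1308 CPM (1280.0 to 1336) at 20 hpf and 1816 CPM (1791 to 1842) in the second 18 hpf library, so the 20 hpf level lay between those of the 18 hpf libraries. In contrast, twist1b had 122 CPM (105 to 140.0) at 18 hpf and 22.4 CPM (18.9 to 26.4) at 20 hpf, 5.42-fold lower (4.35 to 6.76). The second 18 hpf library, with 26.7 CPM (23.8 to 29.9), was near the 20 hpf level and not near the first. In single cells thinned to 6000 UMIs, twist1a and twist1b were found together in 36 of 111 NC cells at 18 hpf (32.4%), in 50 of 324 at 20 hpf (15.4%) and in 39 of 386 of the second 18 hpf library (10.1%). Cells with twist1b and no twist1a numbered 6 of 111 at 18 hpf and 3 of 386 in the second library. At 20 hpf there were none in 324 cells, and a count of 0 there leaves room for a share of 0.926%. Both genes are in the selecting rule, so cells lacking both were less likely to be counted as NC.

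Most arch ectomesenchyme genes over the minimum were at least 2-fold higher at 20 hpf than in the first 18 hpf library, and few than in the second. Of 59 listed genes of the ectomesenchyme and the arch code, 53 were in the table and 20 passed the minimum, with 12 at least 2-fold higher (background 8.9%), 2 lower and a median log2 ratio of 1.13 against 0.16 over all genes. Against the second 18 hpf library, 3 of the 20 were at least 2-fold higher and 1 lower, with a median of 0.39. All genes had 4.32% higher and 8.21% lower there. The genes above both were dlx4b, prrx1b and snai2, and nr2f2 was below both. Several higher members (dlx4b, prrx1b, dlx5a, foxd2, foxc1b and foxc1a) were under 20 CPM in the first 18 hpf library. They passed the minimum only through 20 hpf, where they were high. The list also holds the rule genes dlx2a, twist1a and twist1b. Its counts and medians are therefore a description.

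Dlx genes encode homeobox factors that pattern the arches from dorsal to ventral. The rule gene dlx2a, present in most arch crest, had 326 CPM (299 to 356) at 18 hpf, 543 CPM (529.6 to 557) in the second 18 hpf library and 697 CPM (677 to 717) at 20 hpf, 2.14-fold higher (1.95 to 2.34) than in the first. The ventral gene dlx3b had 20.8 CPM (14.3 to 29.2), 243 CPM (234 to 252) and 336 CPM (322 to 350.4), and was 16.2-fold higher (11.5 to 23.5) than in the first library. Its neighbour dlx4b had 2.52 CPM (0.686 to 6.45), 28 CPM (25 to 31.3) and 96.9 CPM (89.5 to 105), 38.4-fold higher (14.9 to 142) and 3.46-fold higher (3.02 to 3.98) than in the first and second 18 hpf libraries. For dlx5a the levels were 7.56 CPM (3.91 to 13.2), 62.1 CPM (57.6 to 67) and 77.2 CPM (70.6 to 84.2), so that the second 18 hpf library already held most of the 20 hpf level. The order of the 3 libraries was the same for all of these Dlx genes, with the first 18 hpf library lowest and 20 hpf highest.

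The homeobox gene prrx1b, a regulator of limb and head mesenchyme, had 2 UMIs at 18 hpf, 15.3 CPM (13.1 to 17.8) in the second library and 50.8 CPM (45.5 to 56.6) at 20 hpf, a ratio to the first of 40.3-fold (11.1 to 334). Its share of thinned NC cells was 0.901% (0.0228 to 4.92), 6.74% (4.45 to 9.71) and 23.8% (19.2 to 28.8), with 1.8%, 21% and 47.4% unthinned, and none of the 106 background cells of 20 hpf had it, a count of 0 that leaves room for 2.83%. The forkhead genes foxc1b and foxd2, which act in arch mesenchyme, had 78.7 and 44.1 CPM at 20 hpf, 7.35-fold higher (4.55 to 12.7) and 8.75-fold higher (4.38 to 20.5) than at 18 hpf, but the second 18 hpf library had 48.1 and 38.7 CPM, within 2-fold of 20 hpf. The same held for foxc1a, with 10.7, 23.4 and 34.9 CPM. The next 3 members, snai2, nr2f2 and fli1a, were chosen after their values were seen. The Snail factor snai2 had 62.4, 43.4 and 130.4 CPM, 2.09-fold higher (1.7 to 2.6) than in the first, and the nuclear receptor gene nr2f2 had 81.9, 90.1 and 39.5 CPM, 2.07-fold lower (1.67 to 2.57). The Ets factor gene fli1a had 42.2, 65.7 and 95.5 CPM. The Bmp antagonist gene grem2b, a rule gene, went from 48.5 CPM (38.3 to 60.6) at 18 hpf to 588 CPM (569.6 to 607) at 20 hpf, 12.1-fold higher (9.68 to 15.4), with 391 CPM (379 to 403) in the second 18 hpf library. No UMI of it was counted in the NC cells of 12 or 14 hpf.

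Cells with dlx2a and sox10 together were common at 18 hpf and less so at 20 hpf. With each cell thinned to 6000 UMIs, UMIs of both were in 70 of 111 NC cells at 18 hpf (63.1%, 53.4 to 72.0), in 256 of 386 of the second 18 hpf library (66.3%, 61.4 to 71.0) and in 73 of 324 at 20 hpf (22.5%, 18.1 to 27.5). Those with dlx2a and no sox10 were 4, 27 and 195, or 3.60%, 6.99% and 60.2%. Both 18 hpf libraries had intervals that overlapped each other, and neither overlapped that of 20 hpf. Joint detection of dlx2a and foxd3 was 25.2%, 21.5% and 9.26% in the same order.

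**Figure D3:**
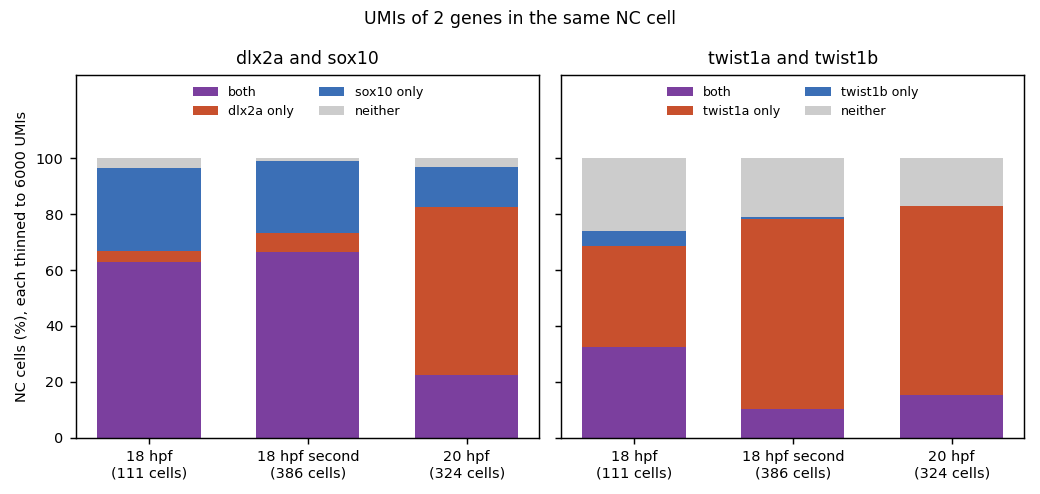
Share of NC cells (percent, each cell thinned to 6000 UMIs) with UMIs of both, one or neither gene of a pair, in 111 cells of 18 hpf, 386 of the second 18 hpf library and 324 of 20 hpf. Cells with both dlx2a and sox10 make up 63.1%, 66.3% and 22.5%, and cells with both twist1a and twist1b 32.4%, 10.1% and 15.4%.

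To see whether sox10 differed among dlx2a-positive cells alone, levels were taken separately in NC cells with and without a dlx2a UMI (87 and 24 cells at 18 hpf, 290 and 35 at 20 hpf, 323 and 63 in the second 18 hpf library). In cells with dlx2a, sox10 had 699.6 CPM (654 to 747) at 18 hpf, 814 CPM (796 to 832) in the second library and 101 CPM (93.4 to 110.0) at 20 hpf. In those without it, sox10 had 1373 CPM (1250.0 to 1505), 1518 CPM (1460.2 to 1578) and 615 CPM (560.2 to 674). The level of sox10 was thus lowest at 20 hpf in both groups. The split used unthinned counts at unlike depth, so a cell without a dlx2a UMI may have carried it undetected. The groups without dlx2a were also unlike across libraries, with gch2 at 48.3, 1461 and 8339 CPM. Whether the level was lower within a single kind of cell was not tested. The gene pax3a was also lowest at 20 hpf in both groups, but the order of the 18 hpf libraries differed between them. In cells without dlx2a it had 217 CPM (170.0 to 274), 406 CPM (376 to 437) and 45.4 CPM (31.4 to 63.4). In those with dlx2a it had 32.6 CPM (23.4 to 44.3), 17.6 CPM (15.0 to 20.5) and 1.03 CPM (0.379 to 2.25).

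Most matrix genes over the minimum were at least 2-fold higher at 20 hpf than in the first 18 hpf library, and as many were higher as lower against the second. Of 56 listed matrix genes 10 passed the minimum, with 6 at least 2-fold higher, 1 lower (8.9% and 4.18% over all genes) and a median log2 ratio of 1.54, against 0.16 over all genes. The second 18 hpf library left 3 at least 2-fold higher and 3 lower, beside 4.32% and 8.21% of all genes, with a median of 0.12. Higher members col1a1a, postnb, cthrc1a, col2a1b and loxl2b were under 20 CPM in the first 18 hpf library. They passed the minimum only through 20 hpf, so the counts and median against the first library are a description. The type I collagen chain col1a1a had 4.41 CPM (1.77 to 9.08) at 18 hpf, 25.5 CPM (22.6 to 28.6) in the second library and 64.1 CPM (58.1 to 70.5) at 20 hpf, 14.5-fold higher (6.99 to 36.4) and 2.52-fold higher (2.16 to 2.93) than in the first and second. The periostin gene postnb had 5.67 CPM (2.59 to 10.8), 31 CPM (27.8 to 34.5) and 72.8 CPM (66.4 to 79.6), 12.8-fold higher (6.7 to 28.2) than in the first. These genes and cthrc1a, a secreted collagen triple-helix protein with 15, 33.4 and 75 CPM, were above both 18 hpf libraries. In the opposite direction, the type XV collagen gene col15a1b had 96.4 CPM (81.7 to 113), 103 CPM (97.6 to 109.6) and 24.3 CPM (20.6 to 28.3), and was 3.97-fold lower (3.16 to 4.99) and 4.27-fold lower (3.61 to 5.07). The type II collagen gene col2a1b (14.5, 26 and 37.7 CPM) and the lysyl oxidase gene loxl2b (17.6, 60.1 and 61.2 CPM) were 2.6-fold higher (1.69 to 4.18) and 3.47-fold higher (2.36 to 5.29) than in the first library and within 2-fold of the second. The protease genes mmp2 (8.19, 23.4 and 32 CPM) and adam19a (13.2, 18.3 and 39.2 CPM) were higher than in the first library, adam19a also by over 2-fold than in the second. Of the adhesion genes, the mesenchymal cadherin gene cdh11 was 3.76-fold higher (2.53 to 5.83) at 20 hpf but within 2-fold of the second 18 hpf library (51.3 against 61.6 CPM), and the beta-catenin gene ctnnb1 was level, at 354, 377 and 361 CPM.

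Guidance genes were past 2-fold in both directions. Of 11 guidance and chemokine genes over the minimum, 3 were at least 2-fold higher and 3 lower, beside 8.9% and 4.18% of all genes. Against the second 18 hpf library 2 were higher and 4 lower, beside 4.32% and 8.21%. The chemokine receptor gene cxcr4a, which steers migrating cells toward Cxcl12, had 5.67 CPM (2.59 to 10.8) at 18 hpf, 19.1 CPM (16.6 to 21.8) in the second library and 108 CPM at 20 hpf, 19-fold higher (9.97 to 41.8) and 5.65-fold higher (4.84 to 6.61). It was in 3.6% (0.99 to 8.97), 8.29% (5.74 to 11.5) and 39.5% (34.1 to 45.1) of thinned NC cells, and in 6.31%, 23.6% and 54.8% unthinned. Background cells carried it in 3.57% (0.743 to 10.1), 10.3% (7.73 to 13.5) and 10.4% (5.3 to 17.8), so the NC share stood above background at 20 hpf alone. A ligand of this receptor, cxcl12b, was also above both, with 20.8, 47.1 and 112 CPM, while the chemokine gene cxcl14 was 7.74-fold lower (4.96 to 12.3), with 37.8, 15.8 and 4.88 CPM. The neuropilin gene nrp2a, a semaphorin co-receptor, had 113 CPM (97.4 to 131), 114 CPM (108 to 120.2) and 26.7 CPM (22.9 to 31), with equal levels in the 18 hpf libraries and a level at 20 hpf 4.25-fold lower (3.43 to 5.26). Syndecan gene sdc4 was 2.92-fold higher (2.6 to 3.28) than in the first library and 1.8-fold higher (1.72 to 1.88) than in the second.

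Some pigment genes were at least 2-fold higher at 20 hpf than in the first 18 hpf library in the summed profile, and few cells carried the highest of them. Of 48 listed pigment genes 18 passed the minimum, with 9 at least 2-fold higher and 2 lower, beside 8.9% and 4.18% of all genes, and a median log2 ratio of 0.99. With the second 18 hpf library 5 were higher and 2 lower, beside 4.32% and 8.21% of all genes, with a median of 0.08. In restricted sets of cells the 20 CPM minimum was applied anew, so genes carried by few cells could fall below it and go uncounted. In NC cells with a dlx2a UMI none of the members over that minimum was at least 2-fold higher. The same held when cells with mitfa, tfec or pax7b, cells with gch2, or cells with under 6 crest genes were left out. Under the minimum in dlx2a cells, mitfa had 0.796 CPM at 18 hpf and 3.62 CPM at 20 hpf. The GTP cyclohydrolase gene gch2, which opens the pteridine pathway of yellow pigment cells, had 16 UMIs in 3 cells at 18 hpf, 2544 UMIs in 35 cells of the second 18 hpf library and 6277 UMIs in 45 cells at 20 hpf. As levels these were 10.1 CPM (5.76 to 16.4), 228 CPM (219 to 237) and 957 CPM (934 to 981). At 20 hpf 33 of the 325 NC cells held 99.8% of its UMIs and a single cell held 672. After thinning its share was 0.901% (0.0228 to 4.92), 5.96% (3.81 to 8.81) and 9.26% (6.33 to 13), with 2.7%, 9.07% and 13.8% unthinned, so the thinned intervals of the second 18 hpf library and of 20 hpf overlapped. In NC cells without dlx2a gch2 had 48.3 CPM (27.6 to 78.4), 1461 CPM (1404 to 1519) and 8339 CPM (8134 to 8549), and in those with dlx2a 0 CPM, 5.51 CPM and 4.65 CPM. Background cells of 20 hpf carried it in 2.83% (0.588 to 8.05), an interval that overlaps that of NC cells.

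**Figure D4:**
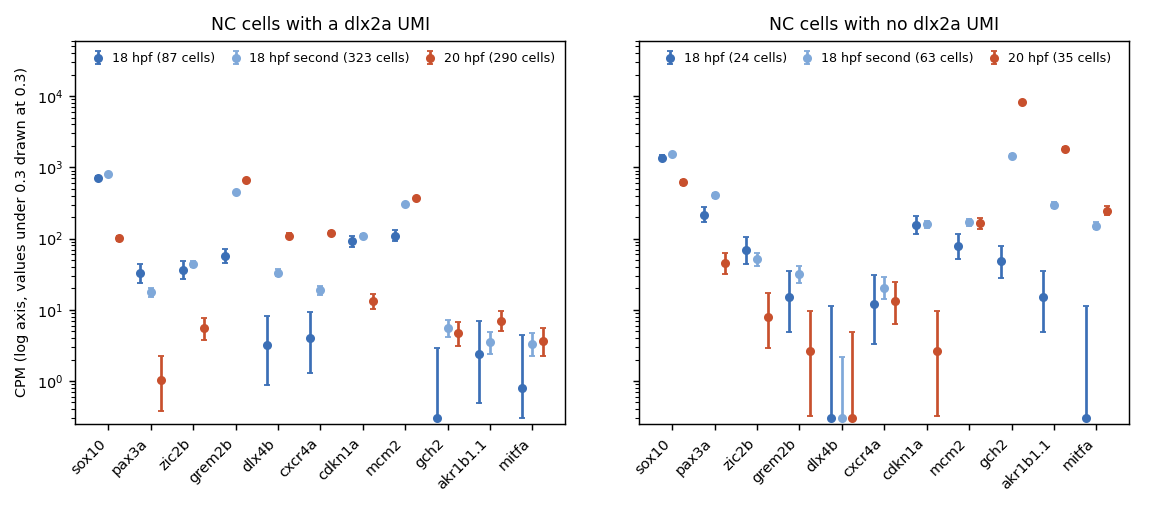
CPM (log axes, with 95% Poisson intervals, values under 0.3 drawn at 0.3) of 11 genes in NC cells with a dlx2a UMI (left) and without one (right), in 18 hpf, second 18 hpf and 20 hpf libraries. The pigment-related genes gch2, akr1b1.1 and mitfa reach their highest levels in the 35 cells of 20 hpf without dlx2a, while grem2b, dlx4b and cxcr4a are highest in the 290 cells with it.

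The melanophore regulator mitfa had 1 UMI at 18 hpf, 26.1 CPM (23.2 to 29.3) in the second 18 hpf library and 31.4 CPM (27.3 to 36) at 20 hpf, a ratio to the first of 49.9-fold (8.86 to 1980.0). Its relative tfec, a pigment factor also under the minimum, had 15 CPM (9.69 to 22.5), 48.6 CPM (44.6 to 52.9) and 1.53 CPM (0.731 to 2.81), and was 9.91-fold lower (4.57 to 23.2) at 20 hpf. For both genes the second 18 hpf library lay well above the first. At 20 hpf mitfa was in 7.1% (4.55 to 10.5) of thinned NC cells and 7.55% (3.31 to 14.3) of background cells, and tfec in 0.926% (0.191 to 2.68) and 4.72% (1.55 to 10.7), so neither NC share stood above background. Background cells passed the same sox10 reporter sort and were defined by few crest genes, so crest pigment cells among them were not excluded. In the second 18 hpf library they carried tfec in 14.2%, against 12.4% of thinned NC cells. At 20 hpf mitfa had 247 CPM in NC cells without dlx2a and 3.62 CPM in those with it. UMIs of dlx2a and mitfa were found in the same thinned cell in 0 of 111, 1 of 386 and 2 of 324 NC cells. The regulator of G-protein signalling rgs2 had no UMI at 18 hpf and was at least 24.4-fold higher at 20 hpf, taking a count of 0 as 3 counts in that library, with 13.4 CPM (11.3 to 15.7) in the second and 46.1 CPM (41 to 51.6) at 20 hpf. The melanosome gene pmela had 15.7, 4.75 and 53.4 CPM, 3.39-fold higher (2.26 to 5.31) than in the first. The paired-box gene pax7a, a xanthophore regulator, was 2.49-fold higher (1.75 to 3.65) than in the first library but lower than in the second (76.1 against 53.2 CPM), and its direction turned when cells with gch2 were left out. The same removal brought phlda1, a pleckstrin homology-like gene that was 3.88-fold higher (2.3 to 7.03), to a log2 ratio of -0.30. It brought gpr143, a melanosome receptor gene that was 2.03-fold higher (1.58 to 2.63), to -0.037, or nearly level. The Sox factor sox5, in contrast, was 2.96-fold lower (2.1 to 4.13), with 39.7, 68.1 and 13.4 CPM. The proton pump accessory gene atp6ap2 had 57.9 CPM (46.7 to 71.1), 67.2 CPM (62.4 to 72.2) and 75.2 CPM (68.7 to 82.1), 1.3-fold higher (1.04 to 1.64) than in the first library.

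Among the 12 genes outside the lists with the highest ratios, 2 followed the pigment pattern. The aldo-keto reductase gene akr1b1.1 had 5.04 CPM (2.18 to 9.93) at 18 hpf, 48.5 CPM (44.5 to 52.8) in the second library and 214 CPM (203 to 226) at 20 hpf, and in the 35 cells of 20 hpf without dlx2a it had 1820.0 CPM (1725 to 1919). A gene listed as CABZ01021592.1, which the files give no other name, had no UMI at 18 hpf, 23 CPM (20.2 to 26) in the second library and 527 CPM (509.7 to 545) at 20 hpf, at least 279-fold higher, with 30 of 325 cells carrying it. Of 16 pteridine and xanthophore genes 9 passed the minimum and 6 were at least 2-fold higher, beside 8.9% of all genes. Above both 18 hpf libraries were 3 of them (gch2, akr1b1.1 and slc2a15b), beside 1.81%. The list was made after values had been seen, so these counts are a description. The sugar transporter gene slc2a15b had 4.41, 6.64 and 40.9 CPM, and its direction turned without the cells that carried gch2.

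Signalling lists held members that were past 2-fold in both directions. Of 12 Notch genes over the minimum, 6 were at least 2-fold lower and 2 higher, beside 4.18% and 8.9% of all genes, with a median log2 ratio of -0.99. Against the second 18 hpf library 2 were lower and 2 higher, beside 8.21% and 4.32% of all genes, with a median of -0.10. The Notch effector her12 had 307 CPM (281 to 336) at 18 hpf and 46.1 CPM (41 to 51.6) at 20 hpf, 6.67-fold lower (5.77 to 7.73), but 53.9 CPM (49.7 to 58.4) in the second 18 hpf library. Effector genes her4.1, her4.2 and her15.1 behaved likewise, with 139, 97.6 and 281 CPM at 18 hpf, 42.1, 24.9 and 76.3 CPM in the second library and 51.1, 22.9 and 111 CPM at 20 hpf. The her4 and her15 genes have close copies, and how the authors' counting treated reads shared by copies was not tested. Their single values are therefore uncertain. The genes her4.1, her4.2 and her15.1 also stand on the list of neural markers. Members of that list summed to 627 CPM at 18 hpf, 340 CPM in the second library and 453 CPM at 20 hpf. The part of neural cells in the Notch values was not tested. The genes past 2-fold on the same side of both 18 hpf libraries were hey1, lfng and nrarpa. The Notch and Bmp effector hey1 had 35.3 CPM (26.6 to 45.8), 32.2 CPM (29 to 35.7) and 136 CPM (127 to 145), 3.84-fold higher (2.93 to 5.13). The Notch modifiers lfng (43.5, 19.4 and 8.54 CPM) and nrarpa (70.5, 76.1 and 26.7 CPM) were lower at 20 hpf. For lfng the 18 hpf libraries also differed from each other.

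Bmp genes were past 2-fold in both directions. Of 11 over the minimum 2 were at least 2-fold higher, bmp5 and grem2b, 5 were lower (the transcription regulators id1, id2a, id3, msx1b and msx2b, known as Bmp targets) and 4 were in between, against 8.9% higher and 4.18% lower over all genes. In the comparison with the second 18 hpf library 1 was higher and 4 lower, beside 4.32% and 8.21% of all genes. The ligand bmp5 had 6.3 CPM (3.02 to 11.6) at 18 hpf, 43.9 CPM (40.1 to 47.9) in the second library and 95.6 CPM (88.3 to 103) at 20 hpf, 15.2-fold higher (8.2 to 31.8). The inhibitor of differentiation genes id1, id2a and id3 were among the most abundant, with 3899.9, 819 and 1343 CPM at 18 hpf, 2541, 633 and 569 CPM in the second library and 1857, 288 and 457 CPM at 20 hpf. Only id2a among these 3 was at least 2-fold below both. Of 6 Fgf genes, the ligand fgf20b was 10.3-fold higher (4.96 to 26) at 20 hpf than in the first library but 1.55-fold higher (1.32 to 1.81) than in the second, and the feedback inhibitor spry4 was 2.77-fold lower (2.42 to 3.16), with 233, 182 and 84.2 CPM. Against the second library none of 15 Wnt genes was at least 2-fold higher and 2 were lower, beside 4.32% and 8.21% of all genes. Against the first 3 were higher and 1 lower, beside 8.9% and 4.18%. The lower gene, the feedback inhibitor nkd1, had 42.2 CPM (32.7 to 53.6), 18.6 CPM (16.1 to 21.3) and 7.47 CPM (5.53 to 9.88), 5.65-fold lower (3.85 to 8.34), and axin2, also a feedback target, had 37.8, 31.7 and 20.1 CPM. The planar polarity gene prickle1b was 3.86-fold higher (2.49 to 6.32), the secreted Wnt inhibitor sfrp5 2.41-fold higher (1.71 to 3.49) and the receptor fzd2 2.16-fold higher (1.43 to 3.41) than in the first library, all within 2-fold of the second. In the Hedgehog list, 2 of 6 genes were at least 2-fold lower and none higher than in the first library, beside 4.18% and 8.9% of all genes. The co-receptor gene cdon was below both, with 62.4, 56.1 and 26.7 CPM, while its relative boc had 27.7, 57.1 and 55.8 CPM. For the endothelin pathway, the receptor gene ednrab, a rule gene, had 1248 CPM (1193 to 1304), 1429.7 CPM (1408 to 1452) and 1152 CPM (1126 to 1178), and its jaw target mef2ca had 60.5, 67.8 and 54.6 CPM, with neither past 2-fold. The retinoic acid receptor gene rarga was 4.96-fold higher (2.96 to 8.97) than in the first library and lower than in the second (64.7 against 46.8 CPM).

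**Figure D5:**
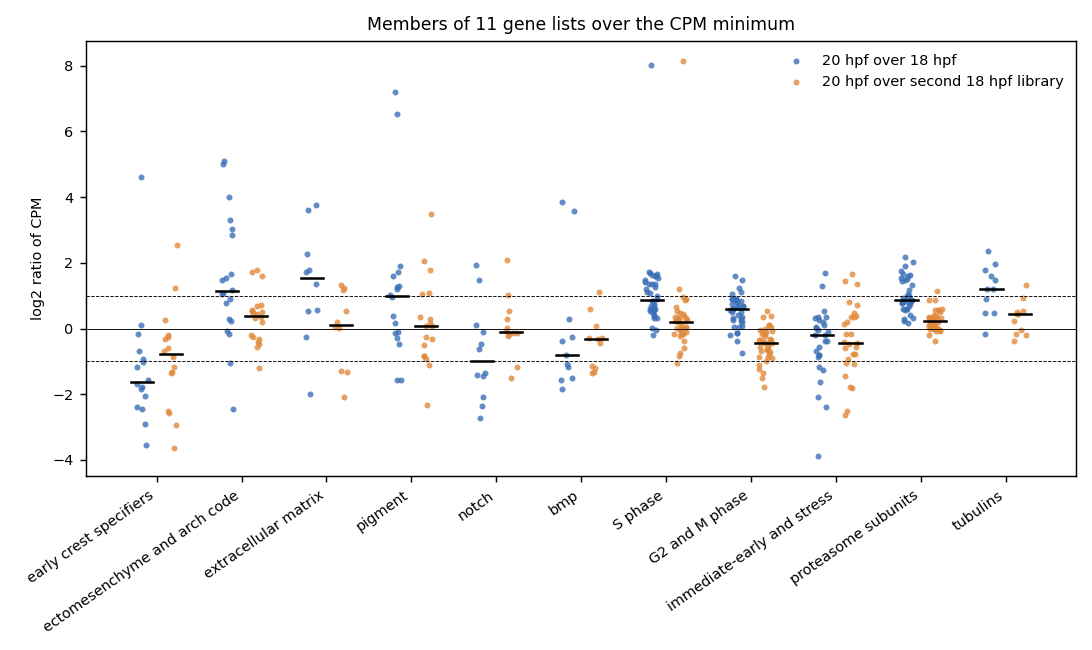
Log2 ratio of CPM at 20 hpf over 18 hpf (blue) and over the second 18 hpf library (orange) for members of 11 gene lists over the CPM minimum, with the median as a bar and 2-fold marked by dashed lines. Early crest specifiers have medians of -1.61 and -0.77, ectomesenchyme genes of 1.13 and 0.39, and S phase genes of 0.87 and 0.21.

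Of 38 S phase genes over the minimum, 17 were at least 2-fold higher at 20 hpf than in the first 18 hpf library, none was lower and 21 were in between, where all genes had 8.9% higher and 4.18% lower. They had a median log2 ratio of 0.87. For the second 18 hpf library, 2 were higher and 1 lower, beside 4.32% and 8.21% of all genes, with a median of 0.21. The replicative helicase gene mcm2 had 103 CPM (88.1 to 120.4), 285 CPM (275 to 295) and 343 CPM (329 to 357) in the first, second and 20 hpf libraries, and its partners mcm3 (83.8, 232 and 274 CPM), mcm5 (92.6, 244 and 287 CPM) and mcm6 (119.7, 294 and 362 CPM) followed the same order. In NC cells with dlx2a, mcm2 had 109.8 CPM (92.3 to 129.8), 306 CPM (295 to 317) and 366 CPM (350.4 to 382), and in those without it 78.5 CPM (51.3 to 115), 170.0 CPM (151 to 191) and 163 CPM (135 to 194). Only rrm2, a subunit of ribonucleotide reductase, and ccne2, a cyclin E gene, were above both, and ccne2 was named for that after its values were seen. Of 39 mitotic genes, 5 were at least 2-fold higher and none lower (median 0.61), beside 8.9% and 4.18% of all genes. Against the second library none was higher and 6 were lower (median -0.43), beside 4.32% and 8.21%. The mitotic genes ccnb1, cdc20 and smc4 had 88.5, 76.1 and 64.8 CPM at 20 hpf, between the first (37.2, 34.6 and 30.9 CPM) and the second 18 hpf library (111, 119 and 99.8 CPM). The first 18 hpf library was therefore the lowest of the 3 for these cell cycle genes.

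Of proteasome subunits and tubulins, listed after values had been seen, 14 of 37 and 7 of 11 were at least 2-fold higher than in the first 18 hpf library, beside 8.9% of all genes, and none was lower. Against the second, 1 of each list was higher (psmc5 and tuba1c) and none lower, beside 4.32% and 8.21% of all genes. The median log2 ratio was 0.88 and 1.22 for the first and 0.22 and 0.43 for the second. The proteasome ATPase gene psmc1a had 34.6, 108 and 158 CPM, the alpha-tubulin gene tuba1b 32.8, 124 and 169 CPM and the calmodulin gene calm1a 29, 132 and 143 CPM.

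Of 28 immediate-early and stress genes over the minimum, 6 were at least 2-fold lower and 2 higher, beside 4.18% and 8.9% of all genes, with a median log2 ratio of -0.20. Against the second 18 hpf library 7 were lower and 3 higher, beside 8.21% and 4.32% of all genes, with a median of -0.43. Below both 18 hpf libraries were 5 (fosb, fosl1a, fosl2, atf3 and socs3a), beside 2.3% of all genes. The stress-response factor atf3 had 699.7 CPM (659 to 742), 569 CPM (555 to 583) and 165 CPM (156 to 175), 4.24-fold lower (3.89 to 4.61) and 3.44-fold lower (3.23 to 3.68). The AP-1 genes fosl2 (43.5, 18.5 and 2.9 CPM) and fosb (73.1, 49.7 and 14 CPM) were 15-fold lower (8.92 to 26.4) and 5.21-fold lower (3.93 to 6.92). Summed over the list, the level was 6145 CPM at 18 hpf, 5151 CPM in the second library and 5173 CPM at 20 hpf. Such genes also respond to dissociation and sorting, and the part of handling in these values was not tested. The cell-cycle inhibitor gene cdkn1a had 105 CPM (89.8 to 122), 117 CPM (111 to 123) and 11.9 CPM (9.4 to 14.8), 8.84-fold lower (6.72 to 11.7) and 9.83-fold lower (7.82 to 12.5), and the 18 hpf libraries had overlapping intervals. In cells with dlx2a it had 91.5 CPM (75.6 to 109.9), 109 CPM (103 to 116) and 13.1 CPM (10.3 to 16.4), and in those without 157 CPM (117 to 206), 158 CPM (139.9 to 178) and 2.67 CPM (0.323 to 9.64). Both groups thus had less of cdkn1a at 20 hpf, with the limits of this split given above. The cyclin G gene ccng1 had 625, 615 and 409 CPM, and the pleckstrin homology-like gene phlda3 had 54.2 CPM (43.3 to 66.9), 168 CPM (160.3 to 176) and 150.3 CPM (141 to 159.9), higher than in the first library only. The SoxC factor sox11a had the same order of libraries as phlda3, with 145 CPM (127 to 165), 385 CPM (373 to 397) and 275 CPM (262 to 288).

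Counts of the remaining lists stand beside 8.9% of all genes higher and 4.18% lower against the first 18 hpf library. Against the second, the shares of all genes were 4.32% higher and 8.21% lower. Of 3 neural and glial genes over the minimum, sox10 was the 1 that was at least 2-fold lower (median -0.68), and against the second 18 hpf library sox10 and prdm12b were lower (median -1.04). The neuronal regulator prdm12b had 76.8, 154 and 74.7 CPM, so in summed level the first 18 hpf library stood with 20 hpf. By share of thinned NC cells it stood with the second 18 hpf library instead. These shares were 28.8% (20.6 to 38.2), 26.9% (22.6 to 31.7) and 12.7% (9.24 to 16.8). Matrix remodelling held 2 of 5 higher against either 18 hpf library, with medians of 0.61 and 0.60. Cell adhesion held 1 of 5 higher against the first and 1 lower against the second, with medians of 0.32 and -0.22. None of 2 endothelin genes, 2 Hox, Meis and Pbx genes and 6 SoxC and translation regulators was past 2-fold in either comparison, with medians between -0.13 and 0.03 against the first library and between -0.53 and -0.31 against the second. Of 13 heat-shock genes 1, hspb1, was lower against both, and 1 was higher against the second, the collagen chaperone gene serpinh1b, with 129.7, 62.2 and 159.7 CPM. Medians of the heat-shock list were 0.39 and 0.08. The signalling lists of Bmp, Fgf, Wnt and Hedgehog had medians of -0.81, -0.22, 0.19 and -0.44 against the first and -0.32, -0.53, 0.14 and -0.81 against the second, and guidance genes of 0.01 and -0.40. The rule genes themselves, given as a description, had 2 of 10 higher and 3 lower against the first and 1 lower against the second, with medians of -0.42 and -0.39. Ribosomal protein genes, a list added after values had been seen, had 1 of 83 higher and 1 lower against the first but 14 higher and 2 lower against the second, and mitochondrial transcripts, also added, had 1 of 10 each way against the first and 3 lower against the second.

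Some of the remaining genes outside the lists were found in other cells too. The neuropeptide B gene npb had 4.41, 12 and 211 CPM, 47.8-fold higher (23.2 to 119) than in the first library. After thinning it was in 25.3% (20.7 to 30.4) of NC cells at 20 hpf and in 16% (9.63 to 24.4) of background cells, with 47.4% and 32.7% unthinned, and at 18 hpf in 0.901% (0.0228 to 4.92) and 2.38% (0.29 to 8.34), so that both kinds of cell had more of it at 20 hpf. The secreted matrix protein gene ccn1 (10.1, 54.3 and 143 CPM) and the developmental regulator mab21l2 (14.5, 74.3 and 141 CPM) were 14.2-fold higher (8.67 to 24.9) and 9.73-fold higher (6.44 to 15.4), mab21l2 within 2-fold of the second 18 hpf library. Among the lowest, the small nuclear RNA gene rn7sk, of the 7SK RNA, was 14.5-fold lower (11.7 to 18), with 242, 145 and 16.8 CPM, the sodium pump subunit gene atp1b3a was 3.42-fold lower (3.00 to 3.91) than in the first library and 1.4-fold lower (1.26 to 1.56) than in the second, and the mitochondrial transcript mt-nd5 had 160.0, 323 and 50.2 CPM.

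Markers of other cell types differed in level by type. Endothelial markers summed to 4.41 CPM at 18 hpf and 5.49 CPM at 20 hpf and myeloid markers to 19.5 and 20.0 CPM. Erythroid markers summed to 25.8 CPM at 18 hpf, 4.13 CPM in the second library (15 of the 16 markers) and 4.73 CPM at 20 hpf. Cardiac and muscle markers summed to 49.1, 4.48 and 3.97 CPM, with 1 cell of 18 hpf at 6454 CPM and the median cell at 0. For both lists only the first 18 hpf library was high. Epithelial markers summed to 353 CPM at 18 hpf, 436 CPM in the second library and 638 CPM at 20 hpf, of which the keratin gene krt8 made up 280 CPM, 373 CPM and 494 CPM, and 16, 4 and 12 markers of 26, 25 and 26 were at 0. The related gene krt18a.1 had 49.8 CPM (39.4 to 62), 46.1 CPM (42.2 to 50.3) and 128 CPM (119.6 to 137), 2.58-fold higher (2.04 to 3.29). Head mesoderm markers summed to 79.4, 148 and 214 CPM, led at 20 hpf by fibina, a secreted protein, at 120.4 CPM (112 to 129) against 17 CPM (11.2 to 24.7) in the first and 30.8 CPM (27.6 to 34.2) in the second 18 hpf library. Endoderm markers summed to 5.04 and 4.27 CPM at 18 and 20 hpf. Among the neural markers, led by her15.1 at 18 hpf and by the tubulin gene tubb5 at 20 hpf, tubb5 was 3.44-fold higher (2.84 to 4.2) than in the first 18 hpf library and 1.41-fold higher (1.32 to 1.5) than in the second. Whether other cell types contributed to the matrix and arch values was not tested.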

How the data were processed

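Single-cell libraries were made from photoconverted cells of Tg(sox10:nEOS)w18 embryos on the 10x Chromium platform, with chemistry v2 for the timeline and v3 for the second 18 hpf library. Per the labels and the study's methods, the authors mapped reads to GRCz11 with Cell Ranger and aggregated the 6 timeline libraries, with Seurat 3 used downstream. The tables deposited by the authors give whole UMI counts for every gene in every cell and were used unnormalized. Whether aggregation subsampled reads between libraries is not given in the sources used here. A cell's library was read from the number ending its name.

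NC cells were found by the rule given in the report, summed per library and scaled to CPM. Intervals are exact Poisson for levels, exact conditional for ratios (no pseudocount) and Clopper-Pearson for shares, all at 95%. Only the ratios and their intervals were checked, on simulated Poisson counts of summed profiles. Such counts do not represent UMIs gathered in few cells. Log2 ratios used 0.5 added to each count. A gene was called at 2-fold or more among those with a mean of at least 20 CPM. With 1 library per stage no test was made. For shares, cells were thinned without replacement to 6000 UMIs (seed 1), leaving out 1 NC cell of 20 hpf. Scrublet in scanpy 1.11.5 called no NC cell of 18 or 20 hpf a doublet, and none was removed for it. At 30 hpf it called 68 of 131 cells doublets, 23 of them NC cells, and these were kept in the 30 hpf levels. Python 3.11.15, numpy 2.4.6, pandas 2.3.3, SciPy 1.17.1 and matplotlib 3.10.9 were used.

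The genes named were up to 8 per list with the largest absolute log2 ratio among those over the minimum, a fixed set of 12 (dlx2a, twist1a, twist1b, grem2b, sox10, foxd3, mitfa, tfec, cxcl14, atp6ap2, phlda3 and sox11a), and the 12 highest and 12 lowest ratios outside the lists with a mean of at least 50 CPM. Members of a list that lay above or below both 18 hpf libraries were also named, after their values were seen. The selecting rule, the 32 lists and the 5 lists added later were chosen with earlier results of these data known. One of the lists is not reported here. Alternatives were the second 18 hpf library, other minimums, other rules for NC cells, other scalings and shares without thinning.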

Additional observations from a re-analysis of the deposited data

How the results depend on the processing

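No paired analysis was possible because each stage had 1 library. With the second 18 hpf library, under a minimum set on its own means with 20 hpf, 142 genes were at least 2-fold higher and 428 lower. Of 131 named genes past 2-fold, 67 stayed past it on the same side, 50 came under 2-fold and 14 turned. Counts of list members became 7 lower for early crest, 3 higher for ectomesenchyme, 3 higher for matrix, 2 higher for S phase and 1 lower for Notch under that minimum. The log2 ratios that turned were ccnb1 -0.33, cdc20 -0.64, cox17 0.42, her15.1 0.54, her15.2 0.45, her4.1 0.28, kif22 -0.061, msx3 1.23, notch2 -0.17, pax7a -0.51, phlda3 -0.16, psmd12 -0.37, rarga -0.46 and smc4 -0.62. The cause was not tested.

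A minimum of 5 CPM gave 738 genes higher and 474 lower, one of 50 CPM 141 and 60, and none 1862 and 3052. Without mitochondrial, ribosomal and haemoglobin genes in the total, 267 were lower and 360 higher (57.4% of calls higher), and after centring 53.4% were, beside 68.1% as reported. The count of higher pigment genes was 14 with a rule of at least 3 crest genes, 15 with a minimum of 5 CPM, 1 with the rule applied after thinning, and 0 with at least 6 crest genes, in dlx2a cells, without cells with mitfa, tfec or pax7b, and without cells with gch2 (added after seeing the data). For each set of cells the minimum was applied anew, so these counts leave out genes that fell below it. Under at least 6 crest genes, log2 ratios turned for pax7a (-5.08), phlda1 (-0.77), pmela (-0.037), slc2a15b (-1.97) and gpr143 (-0.67). With the rule after thinning they were pax7a -1.96, phlda1 -0.089, slc2a15b -0.26 and gpr143 -0.003, in dlx2a cells pax7a -4.64, phlda1 -1.31, slc2a15b -0.99 and gpr143 -0.68, without mitfa, tfec or pax7b cells pax7a -3.53, phlda1 -1.18, slc2a15b -1.01 and gpr143 -0.32, and without gch2 cells pax7a -3.32, phlda1 -0.30, slc2a15b -0.93 and gpr143 -0.037. The NC share was 37.5% at 18 hpf and 50.4% at 20 hpf with at least 6 crest genes, and 57.4% at 20 hpf with the rule after thinning. Unthinned, dlx2a and sox10 were together in 75.7% and 48.3% of NC cells at 18 and 20 hpf and twist1a and twist1b in 43.2% and 31.1%. Depth limits single-cell shares: of 54 shares compared under other settings, 35 stayed within the reported interval and 19 did not, 12 of them without thinning.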

Other observations

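The genes described here were picked after their values were seen. The ribonucleotide reductase gene rrm2 had 1.91 CPM at 12 hpf, 132 CPM at 14 hpf, 0.63 CPM at 18 hpf, 243 CPM at 20 hpf, 544 CPM at 24 hpf and 3.37 CPM at 30 hpf, and 0.807 CPM in the second 18 hpf library, so its level went up and down between neighbouring libraries. Both 18 hpf libraries, of different chemistries, nearly lacked it. At 20 hpf it was in 38.9% of thinned NC cells and in 22.6% of background cells. These shares were 0% and 1.19% at 18 hpf and 0.777% and 0% in the second 18 hpf library. Both kinds of cell thus had more of it at 20 hpf.

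The Lin28 gene lin28a had 249 CPM at 18 hpf, 259 CPM in the second 18 hpf library and 96.3 CPM at 20 hpf, and igf2bp3, which binds many messenger RNAs, had 269.6, 299 and 134 CPM. The zinc-finger repressor zeb2a had 203, 186 and 74.1 CPM. In the other direction, mdka, a secreted growth factor of the midkine family, had 187, 170.0 and 456 CPM. The apolipoprotein gene apoeb had 50.4, 42.2 and 15.3 CPM.

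The transcript zgc:158463 had 108 CPM at 18 hpf, 1875 CPM in the second 18 hpf library and 37.4 CPM at 20 hpf, and the histone gene hist1h4l.11 had 266, 696 and 66.7 CPM. The arch gene barx1 had 0.63 CPM at 18 hpf, 4.13 CPM in the second library, 25.8 CPM at 20 hpf and 366 CPM at 24 hpf, and the gap-junction gene cx30.3 had no UMI at 18 hpf and 74.7 CPM at 20 hpf, in 18 of 325 NC cells.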
